A study of Mus musculus with 6 samples.

Results

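The PGC-1 coactivators and the factors of mitochondrial biogenesis were described here as a set of 10 genes, found by gene name in the table of estimated counts: Ppargc1a, Ppargc1b, Pprc1, Esrra, Esrrg, Tfam, Nrf1, Gabpa, Tfb2m and Polg. Each name had 1 row among the 27131 rows of the table, and all 10 passed the filter on low counts. The libraries came from the levator ani/bulbocavernosus, an androgen-sensitive pelvic muscle group, taken at 14 weeks from 3 mice labelled WT and 3 labelled 113Q. The 113Q mice are a knock-in model of spinal and bulbar muscular atrophy (SBMA), a disease of motor neurons and muscle that is caused by a lengthened glutamine tract in the androgen receptor. All animals ate standard chow. The labels name no drug, and they give no sex, strain, litter or number of copies of the 113Q allele. Each library is 1 numbered mouse, and the p-values measure the spread between these mice. The question is which of these transcripts differ in level between the 2 genotypes.

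As background, PGC-1 proteins do not bind DNA themselves. They are coactivators that dock on transcription factors and raise the output of the genes those factors occupy. In skeletal muscle, PGC-1alpha (the product of Ppargc1a) is induced by contraction and nerve activity and is high in oxidative fibres. Its partners include the oestrogen-related receptors, nuclear respiratory factor 1 and GA-binding protein, which switch on nuclear genes for the respiratory chain. They also switch on the proteins that enter the mitochondrion to copy and transcribe its own DNA, such as Tfam, Tfb2m and the polymerase Polg.

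The coactivators Ppargc1a and Ppargc1b were lower in 113Q muscle, Ppargc1a by 2.15 times and Ppargc1b by 2.34 times. The mitochondrial transcription factors Tfam and Tfb2m were lower by 1.52 and 1.54 times. The transcription factors between them in the pathway (Esrra, Esrrg, Nrf1, Gabpa), the third coactivator Pprc1 and the DNA polymerase Polg did not pass the test. In counts, 4 of the 10 genes passed as lower at an edgeR adjusted p below 0.05, against a background of 18.1% of the 16960 genes tested that passed as lower (34.6% passed in either direction). In the same 4 genes every 113Q mouse was below every WT mouse; of all genes tested, 24.8% were separated that way, 25.1% in the other direction and 49.9% in either. As higher, 0 of 10 passed in edgeR, against 16.5% of all genes, with 0 of 10 at an unadjusted p below 0.05, 0 by DESeq2 and 0 by limma voom. The median log2 fold change was -0.34 over the 10 genes and 0.01 over all genes tested. How the libraries were scaled decided part of this. With library totals alone, Ppargc1a and Ppargc1b were still lower, Tfam and Tfb2m lost their calls, and 5 of the other genes passed as higher. Of all 16960 genes tested, 710 then passed as lower and 11015 as higher.

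**Figure D1:**
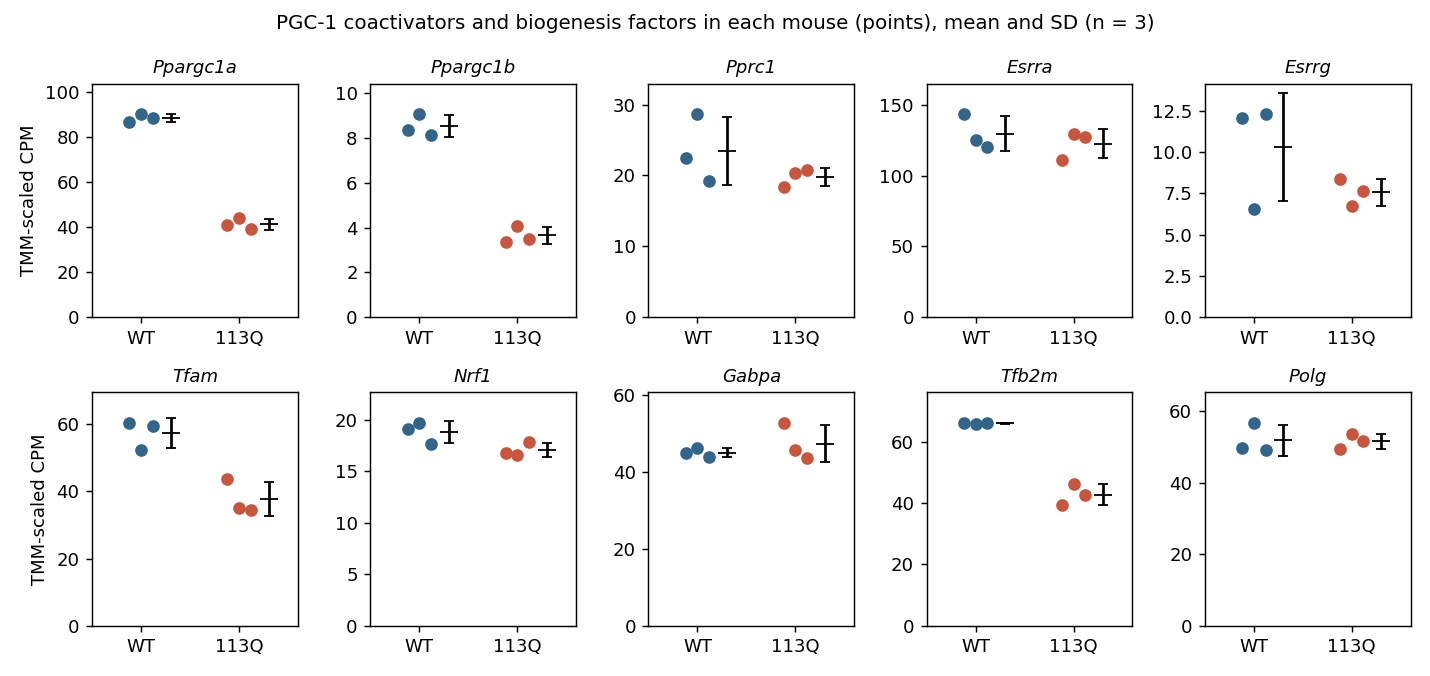
Level of each of the 10 transcripts in TMM-scaled CPM (vertical axis, from 0) in the 3 WT mice (blue) and the 3 113Q mice (red), with the mean and SD beside the points. The groups stand apart for Ppargc1a, Ppargc1b, Tfam and Tfb2m and overlap for the other 6.

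Counts over the libraries summed to between 43581085 and 73873472 per library. Levels are given as CPM, the usual count relative to library size, with TMM factors, which align the bulk of the genes between libraries. These factors ran from 0.768 to 0.794 in WT and from 1.26 to 1.32 in 113Q; the 20 most abundant genes held 30.8% to 32.7% of the WT counts and 14.1% to 15.7% of the 113Q counts. Of the defining markers of the myofibre, 10 of 10 passed as lower, and their summed level was 158816 to 183228 CPM in the WT mice and 41857 to 50439 CPM in the 113Q mice. Fewer fibres and less RNA per fibre cannot be told apart in whole muscle. Smooth muscle markers summed to 353.3 to 763.4 CPM in the WT mice and 1222 to 2591 CPM in the 113Q mice, with 1 of 5 past the test as higher (4 of 5 by DESeq2), and satellite cell markers to 47.1 to 51.3 and 85.3 to 105.2 CPM, with 5 of 5 past it as higher. Endothelial markers summed to 340.3 to 440.3 CPM in the WT mice and 237.4 to 241.8 CPM in the 113Q mice, with 6 of 6 past it as lower. The part of these cell types in the results was not tested. Brown fat, a tissue rich in Ppargc1a, had its defining marker Ucp1 at 0 counts in all 6 libraries. The other 4 of the 5 brown and beige fat markers were tested; 1 passed as higher and 1 as lower, and the list summed to 9.56 to 10.7 CPM in the WT mice and 16.0 to 19.6 CPM in the 113Q mice. Of 6 white fat markers 1 passed as lower; they summed to 207.2 to 648.5 CPM in the WT mice and 197.9 to 388.5 CPM in the 113Q mice. The epithelial gene Epcam was at 3.83 CPM in the second WT mouse and at 8.29 and 10.2 CPM in 113Q mice 2 and 3, and below 1 CPM in the other 3 libraries. Without the 3 libraries above 1 CPM, which leaves 1 113Q mouse assumed to vary like the WT mice, Ppargc1a had a log2 fold change of -1.11 ± 0.14 (SE; edgeR adjusted p = 0.00165) and Ppargc1b one of -1.30 ± 0.28 (edgeR adjusted p = 0.0152).

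Ppargc1a (ENSMUSG00000029167.13, chr5:51454250-51567726 on the minus strand of mm10) encodes PGC-1alpha, the coactivator most closely tied to mitochondrial biogenesis in muscle. Its level was 86.7, 90.4 and 88.7 CPM in the WT mice and 40.7, 43.96 and 39.2 CPM in the 113Q mice. The groups were far apart, and the WT mice lay close together, with a coefficient of variation of 2.06% against 5.88% in 113Q. The log2 fold change was -1.10 ± 0.08 (SE, n = 3 against 3; edgeR adjusted p = 3.95e-05), with a 95% interval of -1.28 to -0.93. Of all genes tested, 5.63% had a lower log2 fold change. The fall passed in each of 19 other settings, with adjusted p-values up to 0.0024. The table counts fragments per gene, so alternative promoters and splice forms of Ppargc1a are summed.

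Right before its RefSeq start, Ppargc1a carries a half-site of the cAMP response element, the letters TGACGT, which the factor CREB can bind. It is shown because CREB is a known inducer of this gene, and its letters are in capitals on the minus strand, read 5′ to 3′, in their reverse form (build GRCm38.p6, RefSeq).
Ppargc1a, chr5:51567758-51567787: aggtgccctcccACGTCActgagctccagt
The match lies 50 to 45 bases before the start. Such a half-site was found in 6.47% of 32851 promoter windows of the same 250 bases, so its presence describes the sequence and no more. Creb1, the gene for CREB itself, had a log2 fold change of 0.05 (edgeR adjusted p = 0.753; chosen after its value was seen).

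Ppargc1b, which encodes PGC-1beta, a close relative with overlapping targets, was less abundant: per kilobase of its longest coding transcript it stood at 2.33 CPM in WT, against 13.7 for Ppargc1a. Its level was 8.38, 9.08 and 8.14 CPM in the WT mice and 3.35, 4.08 and 3.51 CPM in the 113Q mice. The groups did not overlap, and the highest 113Q mouse was well under the lowest WT mouse. On edgeR's fit the log2 fold change was -1.23 ± 0.15 (SE; edgeR adjusted p = 0.00056), with a 95% interval of -1.57 to -0.88. The fewest counts behind any of these values were 283, in WT mouse 1.

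Pprc1 (chr19:46044886-46072915, plus strand) encodes PRC, the third member of the family, which is known as a growth-responsive coactivator. It was at 22.4, 28.7 and 19.3 CPM in the WT mice and 18.3, 20.4 and 20.8 CPM in the 113Q mice. The groups overlapped, and WT mouse 2 stood highest. The log2 fold change of -0.24 ± 0.15 (SE) did not pass (edgeR adjusted p = 0.237), and its 95% interval of -0.58 to 0.09 lies above the whole interval of Ppargc1a. Pprc1 passed as lower once a term for Epcam of at least 1 CPM was added (log2 fold change -0.33; edgeR adjusted p = 0.049), and without WT mouse 2 its log2 fold change was -0.07 (edgeR adjusted p = 0.674). Exons of Ldb1 overlap Pprc1 on the other strand, and reads of the 2 genes cannot be told apart if strand was not used; Ldb1 was at 46.3 ± 1.84 CPM in the WT mice and 51.7 ± 2.20 CPM in the 113Q mice (SD, n = 3).

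Ratios of 2 genes within a library do not depend on the scaling. Ppargc1a had 10.3, 9.96 and 10.9 counts per count of Ppargc1b in the WT mice and 12.2, 10.8 and 11.2 in the 113Q mice. These ranges overlapped (difference of mean log2 ratios 0.13; two-sided exact permutation p = 0.2). Per count of Pprc1, Ppargc1a had 3.87, 3.15 and 4.599 counts in WT and 2.22, 2.16 and 1.89 in 113Q. Here every 113Q mouse was below every WT mouse (difference of mean log2 ratios -0.88; two-sided exact permutation p = 0.1, the smallest that 3 against 3 can give). Over the 4 ratios compared, the p-values adjusted to 0.267 and 0.2, so neither passed. The difference for Ppargc1a to Ppargc1b was 0.078 without 113Q mouse 1.

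**Figure D2:**
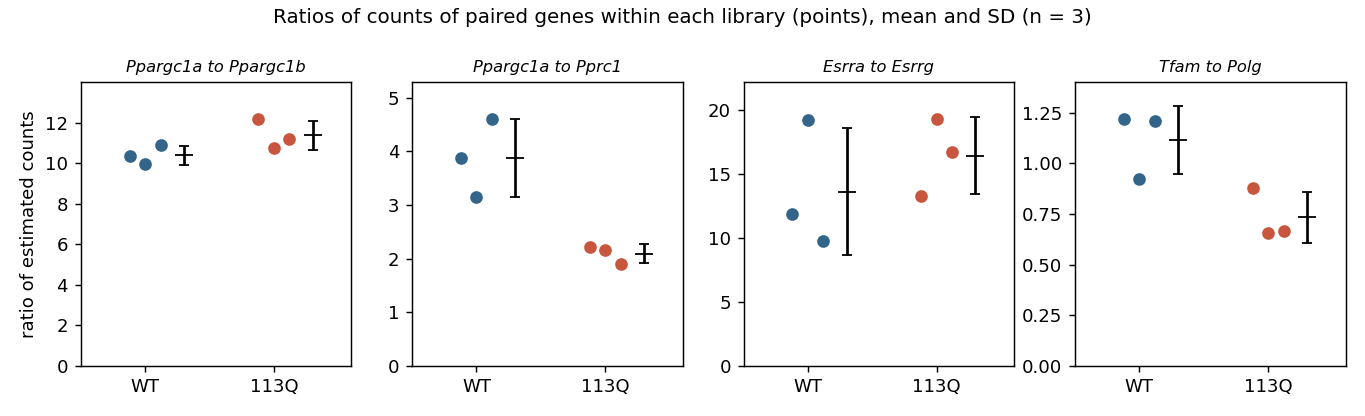
Ratio of estimated counts of 2 genes within a library (vertical axes, from 0) in the 3 WT mice (blue) and the 3 113Q mice (red), with the mean and SD. The groups are apart for Ppargc1a to Pprc1 and for Tfam to Polg and overlap for Ppargc1a to Ppargc1b and Esrra to Esrrg.

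The oestrogen-related receptors are orphan nuclear receptors that PGC-1alpha and PGC-1beta switch on without a hormone. Esrra (chr19:6910977-6921813, minus strand) was the most abundant of the 10 transcripts per length. Its level was 143.9, 125.3 and 120.5 CPM in the WT mice and 111.0, 129.5 and 127.9 CPM in the 113Q mice. The groups overlapped in both directions. 113Q over WT gave a log2 fold change of -0.08 ± 0.10 (SE; edgeR adjusted p = 0.572), with a 95% interval of -0.31 to 0.15. This interval lies above the whole interval of Ppargc1a. Esrra is itself known as a PGC-1alpha target, and a link between the levels of Esrra and Ppargc1a was not tested. Exons of Trmt112 overlap Esrra on the other strand; Trmt112 was at 34.3 ± 6.87 CPM in the WT mice and 28.9 ± 2.15 CPM in the 113Q mice (SD, n = 3).

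Esrrg (chr1:187608791-188214885, plus strand) encodes the receptor of this family tied to slow, oxidative fibres. It was at 12.1, 6.53 and 12.3 CPM in the WT mice and 8.35, 6.72 and 7.67 CPM in the 113Q mice. WT mouse 2 was lowest of the 6 libraries while the other 2 WT mice were highest, and the WT coefficient of variation was 31.8%. 113Q over WT gave a log2 fold change of -0.44 ± 0.24 (SE; edgeR adjusted p = 0.193), with a 95% interval of -0.998 to 0.11. Without WT mouse 2 it was -0.69 and passed (edgeR adjusted p = 0.00888), so this 1 library decides the call. The ratio of Esrra to Esrrg was 11.9, 19.2 and 9.78 in WT and 13.3, 19.3 and 16.7 in 113Q, with overlapping groups (difference of mean log2 ratios 0.31; two-sided exact permutation p = 0.4, adjusted 0.4). That difference was 0.59 without WT mouse 2, 0.10 without WT mouse 3 and 0.19 without 113Q mouse 2.

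Nrf1 (chr6:30047988-30153458, plus strand) encodes nuclear respiratory factor 1, which binds GC-rich palindromes in promoters of respiratory genes. Its level was 19.1, 19.7 and 17.7 CPM in the WT mice and 16.8, 16.6 and 17.9 CPM in the 113Q mice. The ranges touched only where 113Q mouse 3 passed WT mouse 3. The log2 fold change of -0.14 ± 0.09 (SE) did not pass (edgeR adjusted p = 0.295), and its 95% interval was -0.35 to 0.08.

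Gabpa (chr16:84834925-84863779, plus strand) encodes the DNA-binding subunit of GA-binding protein, also called nuclear respiratory factor 2. It was at 45.1, 46.3 and 43.9 CPM in the WT mice and 52.9, 45.7 and 43.6 CPM in the 113Q mice. The 113Q values spanned the WT values, with 113Q mouse 1 highest. On edgeR's fit the log2 fold change was 0.07 ± 0.09 (SE; edgeR adjusted p = 0.58), with a 95% interval of -0.14 to 0.28, and it was -0.0077 without 113Q mouse 1. Gabpb1 and Gabpb2, the partner subunits that carry the activation domain, had log2 fold changes of 0.01 and 0.09 (edgeR adjusted p = 0.961 and 0.532; both chosen after their values were seen). Gabpa shares exon sequence with Atp5j, an ATP synthase gene on the other strand that fell by 0.91 on the log2 scale (671.2 ± 28.7 to 357.8 ± 16.0 CPM, SD, n = 3). Reads of the overlap cannot be told apart if strand was not used.

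Promoter sequences are shown for Esrra, Gabpa, Tfam and Polg, whose windows hold a known binding string of nuclear respiratory factor 1 or GA-binding protein. They were taken by symbol from RefSeq's promoters of GRCm38.p6 for 9 of the 10 genes. Ppargc1b was left out, and its promoter was not searched. The 250 bases before each annotated start (13 windows) were searched on both strands for 4 letter strings, chosen after the sequences had been seen: GCATGCG, the core of the nuclear respiratory factor 1 site, which overlaps its own reverse complement; CCGGAAG, the core of the GA-binding protein site, which other ETS factors share; AAGGTCA, the oestrogen-related receptor site; and TGACGT. The first lay in Esrra, in Gabpa and at 1 of the starts of Esrrg (not shown), the second in Gabpa, Tfam and Polg. Both strings are in capitals in these stretches of 30 bases, each on its gene's strand.
Esrra, chr19:6921824-6921853: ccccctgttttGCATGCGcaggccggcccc
Gabpa, chr16:84835094-84835123: ctcttggagacactgcactgtacGCATGCG
Gabpa, chr16:84835020-84835049: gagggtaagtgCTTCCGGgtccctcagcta
Tfam, chr10:71238073-71238102: cctgccgcggaCCGGAAGtccgggcttccc
Polg, chr7:79466293-79466322: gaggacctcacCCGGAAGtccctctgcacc
Of all 32851 windows, 3.02% held the nuclear respiratory factor 1 string, 6.91% the GA-binding protein string and 4.08% the oestrogen-related receptor string, which no window of these genes held. Tfam and Polg carry the same GA-binding protein string, 47 to 41 and 38 to 32 bases before the RefSeq start. By the GENCODE coordinates given with each gene, the stretches of Gabpa, Tfam and Polg lie inside the gene. The windows of these genes also hold annotated exons of the gene itself. The window of Gabpa holds exon sequence of Atp5j too, and that of Polg exon sequence of Gm10616. Tfam was lower in 113Q, and Polg did not pass the test.

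Tfam (chr10:71225464-71238280, minus strand) encodes the protein that packages mitochondrial DNA and opens its promoters. Its level was 60.4, 52.3 and 59.4 CPM in the WT mice and 43.6, 35.1 and 34.4 CPM in the 113Q mice. The groups did not overlap, with 113Q mouse 1 nearest to WT mouse 2. 113Q over WT gave a log2 fold change of -0.61 ± 0.11 (SE; edgeR adjusted p = 0.00397), with a 95% interval of -0.86 to -0.35. In the 3 libraries with Epcam below 1 CPM it was -0.46 and missed the threshold (edgeR adjusted p = 0.0526), with 1 113Q mouse.

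Tfb2m (chr1:179528055-179546267, minus strand) encodes the factor that works with the mitochondrial RNA polymerase to start transcription. It was at 66.1, 65.8 and 66.1 CPM in the WT mice and 39.5, 46.3 and 42.5 CPM in the 113Q mice. The WT mice were nearly level, and every 113Q mouse was lower. The log2 fold change was -0.63 ± 0.08 (SE; edgeR adjusted p = 0.000713), with a 95% interval of -0.81 to -0.44. Polrmt, the RNA polymerase with which it works, passed as lower too (log2 fold change -0.44; edgeR adjusted p = 0.0439), while Tfb1m, the related RNA methyltransferase of mitochondrial ribosomes, had 0.16 and did not pass (edgeR adjusted p = 0.447; both chosen after their values were seen).

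Polg (chr7:79446231-79466362, minus strand) encodes the catalytic subunit of the mitochondrial DNA polymerase. Its level was 49.6, 56.7 and 49.0 CPM in the WT mice and 49.5, 53.6 and 51.5 CPM in the 113Q mice. All 113Q values fell inside the WT range. Exons of Fanci overlap Polg on the other strand; Fanci was at 0.577 ± 0.18 CPM in the WT mice and 0.897 ± 0.06 CPM in the 113Q mice (SD, n = 3). The log2 fold change was -0.0071 ± 0.08 (SE; edgeR adjusted p = 0.958), and its 95% interval of -0.20 to 0.19 covers changes of either sign. The ratio of Tfam to Polg was 1.22, 0.923 and 1.21 in WT and 0.881, 0.655 and 0.668 in 113Q. The groups did not overlap (difference of mean log2 ratios -0.61; two-sided exact permutation p = 0.1, adjusted 0.2).

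Per kilobase of the longest coding transcript, the WT order of levels began with Esrra at 57.9 ± 5.51 CPM per kb, Tfb2m at 27.0 ± 0.08, Tfam at 13.8 ± 1.06 and Ppargc1a at 13.7 ± 0.28 (SD, n = 3). Tfam and Ppargc1a did not differ beyond their spread. Gabpa followed at 9.04 ± 0.23 CPM per kb, Polg at 6.61 ± 0.54, Nrf1 at 5.25 ± 0.30 and Pprc1 at 4.47 ± 0.91, and of these the last 2 overlapped. Ppargc1b at 2.33 ± 0.13 and Esrrg at 1.92 ± 0.61 CPM per kb were lowest and overlapped. In 113Q the order was Esrra, Tfb2m, Gabpa at 9.50 ± 0.97, Tfam at 9.04 ± 1.23, Polg at 6.58 ± 0.26 and Ppargc1a at 6.39 ± 0.38 CPM per kb, followed by Nrf1, Pprc1, Esrrg and Ppargc1b. Ppargc1a was at rank 4 in WT and at rank 6 in 113Q, where it did not differ from Polg beyond their spread.

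Library totals alone give the other end of the scale. It shifted the median of all genes by 0.72 (log2), and 93.9% of the genes called were then higher, against 47.6% with TMM factors. The 10 transcripts together held 0.0385% to 0.0398% of all counts in WT and 0.0491% to 0.0510% in 113Q. With totals alone, Ppargc1a was at 67.2, 69.4 and 70.5 CPM in the WT mice and 53.8, 55.7 and 49.5 CPM in the 113Q mice, still without overlap (log2 fold change -0.38 ± 0.08, SE; edgeR adjusted p = 0.0024). Ppargc1b was at 6.49, 6.97 and 6.47 CPM in the WT mice and 4.42, 5.17 and 4.43 CPM in the 113Q mice, also without overlap (log2 fold change -0.51 ± 0.15, SE; edgeR adjusted p = 0.0163). These were the 2 of the 10 genes that passed as lower under both scalings. Tfam and Tfb2m had log2 fold changes of 0.12 and 0.09 there (edgeR adjusted p = 0.427 and 0.319). Gabpa, Polg, Esrra, Nrf1 and Pprc1 passed as higher, with log2 fold changes of 0.79, 0.71, 0.64, 0.58 and 0.48, each near or below the 0.73 median of all genes. The calls of these 5 genes as higher thus held with library totals alone, and those of Tfam and Tfb2m as lower with TMM factors. Tfam and Tfb2m also passed as lower with RLE factors (edgeR adjusted p = 0.00384 and 0.000661) and with upper-quartile factors (edgeR adjusted p = 0.00608 and 0.000992). With these factors 0 of the 10 genes passed as higher, and the median of all genes was 0.005 and 0.055. With totals alone, Tfam and Tfb2m, at 0.12 and 0.09, still lay below the 0.73 median of all genes.

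**Figure D3:**
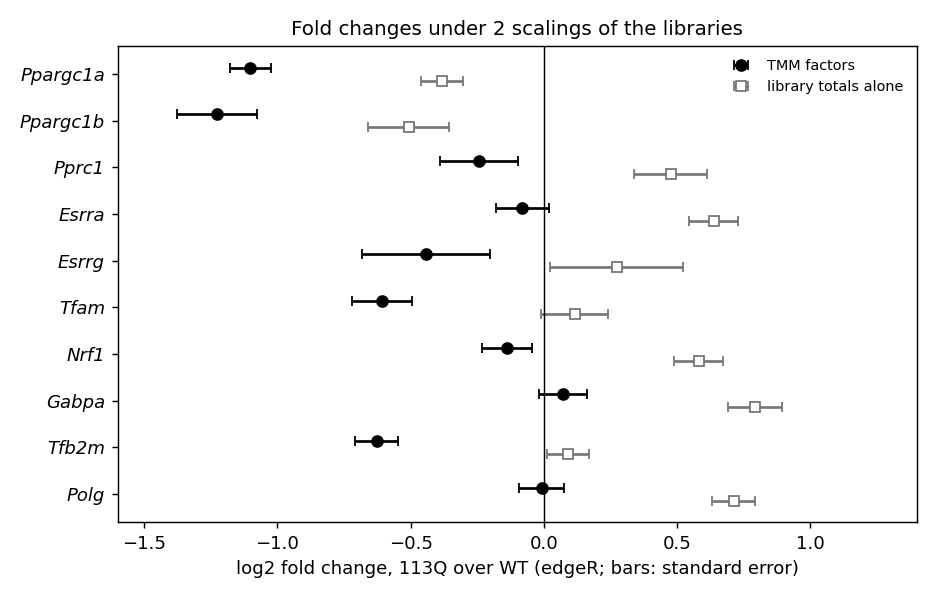
Log2 fold change of 113Q over WT (horizontal axis) with its standard error for each of the 10 genes, with TMM factors (filled circles) and with library totals alone (open squares). Ppargc1a and Ppargc1b lie left of 0 in both, Tfam and Tfb2m in the first only.

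Genes around these factors were read from lists of known regulators, partners and outputs, all with TMM factors and against the background of 18.1% lower and 16.5% higher. Where counts with library totals are added, their background is 710 lower and 11015 higher of the 16960 genes tested. Of 30 upstream regulators of PGC-1alpha, 14 passed as lower, 5 as higher and 11 did not pass. Mapk12, the muscle p38 kinase, had a log2 fold change of -1.33 (edgeR adjusted p = 4.29e-05), Nrip1, the corepressor RIP140 that opposes PGC-1alpha, -1.39 and Lpin1, a PGC-1alpha partner in lipid metabolism, -1.05. Prkag2, a regulatory subunit of the energy sensor AMPK, rose by 0.91 (edgeR adjusted p = 0.000268). Its relative Prkag3 fell by 0.57 (edgeR adjusted p = 0.026), and Prkag1 did not pass (edgeR adjusted p = 0.514; both chosen after their values were seen). Prkag3 was the more abundant, with a WT mean of 335.9 CPM against 34.0 CPM for Prkag2. The AMPK catalytic subunits, chosen after their values were seen, moved in opposite directions: Prkaa1 by 0.95 and Prkaa2 by -0.64 (edgeR adjusted p = 0.000423 and 0.000854). The count of lower regulators was 9 without WT mouse 1, WT mouse 3 or 113Q mouse 1 and 8 without 113Q mouse 2; that of higher ones was 3 without any single mouse other than 113Q mouse 1. Scaled by library totals, 3 of the 30 were lower and 23 higher, so the balance of this group turned, as did that of all genes. Their median log2 fold change was then 0.56, against 0.73 for all genes.

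Of 17 partner transcription factors, 6 passed as lower, 0 as higher in edgeR (2 at an unadjusted p below 0.05, 1 by DESeq2 and 2 by voom) and 11 did not pass. All 3 retinoid X receptors, which pair with other nuclear receptors, were among those that fell: Rxrg by 1.57 on the log2 scale (109.4 ± 21.0 to 36.8 ± 1.22 CPM), Rxra by 0.54 and Rxrb by 0.45. Nfe2l2, the antioxidant regulator, fell by 0.34. Without WT mouse 1, 1 partner passed as higher. With library totals alone, 1 of the 17 was lower and 14 higher, so the direction of this group turned, as did that of all genes. Their median log2 fold change was then 0.56, against 0.73 for all genes.

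Next came the outputs of the pathway. Of 17 respiratory targets of the factors, 14 passed as lower, 0 as higher in edgeR (1 at an unadjusted p below 0.05, 0 by DESeq2 and 1 by voom) and 3 did not pass, with a median log2 fold change of -0.65. Idh3a, an isocitrate dehydrogenase subunit, was at 900.1 ± 6.44 CPM in the WT mice and 398.6 ± 33.7 CPM in the 113Q mice, cytochrome c (Cycs) at 750.5 ± 50.1 and 383.7 ± 10.9, and Cox4i1, a subunit of cytochrome c oxidase, at 1263 ± 35.5 and 670.6 ± 34.7 (SD, n = 3). Sdhd, a succinate dehydrogenase subunit, fell by 0.80 on the log2 scale. Without WT mouse 1, 1 target passed as higher. Scaled by totals, 4 of these 17 passed as lower and 4 as higher, and their median was 0.07 against 0.73 for all genes.

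Of 16 muscle genes known to be driven by PGC-1alpha, 8 passed as lower, 2 as higher and 6 did not pass. The row 2310042D19Rik, an older name of Perm1, a muscle gene induced by PGC-1 and oestrogen-related receptors, was at 362.0 ± 23.9 CPM in the WT mice and 117.0 ± 1.25 CPM in the 113Q mice (SD, n = 3; log2 fold change -1.63; edgeR adjusted p = 1.07e-05). Sod2, the mitochondrial superoxide dismutase, fell by 0.85, Slc2a4, a glucose transporter, by 2.18 and the myoglobin gene Mb by 5.72 on the log2 scale. The 2 that rose, chosen after their values were seen, were Ucp2, an uncoupling protein (1.52), and Ccbl2, a kynurenine aminotransferase gene (0.80). Its relative Ccbl1, also chosen after its value was seen, fell by 0.68. Under library totals, 5 of the 16 were lower and 6 higher, and their median was 0.35 against 0.73 for all genes.

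**Figure D4:**
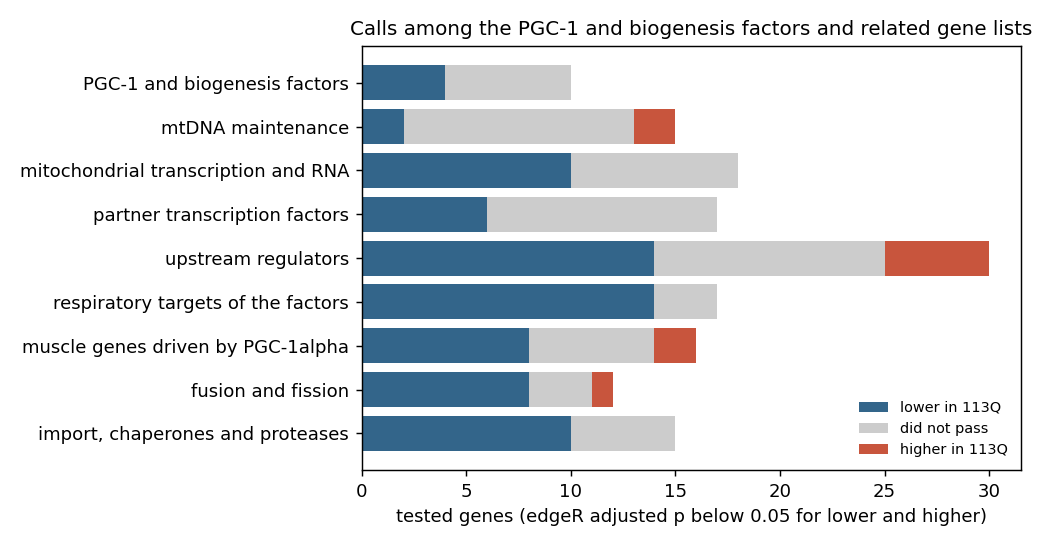
Number of tested genes (horizontal axis) that were lower in 113Q (blue), did not pass (grey) or were higher (red) at an edgeR adjusted p below 0.05 with TMM factors, for the 10 PGC-1 and biogenesis factors and 8 related lists. The respiratory targets have 14 of 17 lower, and the genes of mitochondrial DNA maintenance 2 of 15.

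Inside the mitochondrion, the genes for reading the DNA and those for copying it had different counts of calls at the adjusted threshold. Of 18 genes of mitochondrial transcription and RNA, 10 passed as lower, 8 did not pass and 0 passed as higher in edgeR (0 at an unadjusted p below 0.05, 0 by DESeq2 and 0 by voom). Lrpprc, which stabilises mitochondrial messenger RNAs, was at 297.4 ± 31.7 CPM in the WT mice and 142.4 ± 2.38 CPM in the 113Q mice, and Grsf1, a protein of mitochondrial RNA granules, at 176.0 ± 8.36 and 103.2 ± 5.60 (SD, n = 3). Supv3l1 and Pnpt1, the helicase and nuclease that degrade mitochondrial RNA, fell by 0.59 and 0.50 on the log2 scale. Of 15 genes of mitochondrial DNA maintenance, 2 passed as lower, 2 as higher and 11 did not pass, against 18.1% lower and 16.5% higher of all genes. At an unadjusted p below 0.05, 6 maintenance genes and 11 transcription genes were lower. DESeq2 called 3 and 10 as lower, and voom 2 and 9. Peo1, the replicative helicase Twinkle, fell by 0.48 and 8430406I07Rik, which RefSeq lists as a synonym of the exonuclease gene Mgme1, by 0.47. The nucleotide supply genes Tk2, mitochondrial thymidine kinase, and Rrm2b, a ribonucleotide reductase subunit, rose by 0.53 and 0.63. Without any single mouse other than WT mouse 3, 1 maintenance gene was lower. The difference between these 2 lists was not tested. Under library totals, 1 transcription gene was lower and 8 higher, and 0 maintenance genes were lower in edgeR and 12 higher. The medians of the 2 lists were then 0.33 and 0.56, against 0.73 for all genes.

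Of 12 fusion and fission genes, 8 passed as lower, 1 as higher and 3 did not pass. Mfn2 and Opa1, which fuse the outer and inner membranes, fell by 0.52 and 0.50 on the log2 scale, and the prohibitins Phb and Phb2, scaffolds of the inner membrane, by 0.68 and 0.89. The gene that rose, chosen after its value was seen, was the fission enzyme Dnm1l (0.43). Without WT mouse 1 the count of higher genes in this list was 2. Of 15 genes for import, chaperones and proteases, 10 passed as lower, 5 did not pass and 0 passed as higher in edgeR (0 at an unadjusted p below 0.05, 0 by DESeq2 and 0 by voom). Timm23, the channel of the inner membrane, fell from 260.0 ± 21.5 to 123.9 ± 6.999 CPM and Hspa9, the chaperone that pulls proteins in, from 690.0 ± 16.1 to 373.1 ± 17.5 CPM (SD, n = 3). Timm17a fell by 0.74 and the protease subunit Afg3l2 by 0.81. With library totals alone, the lower and higher counts were 0 and 7 for fusion and fission and 1 and 9 for import. Their median log2 fold changes were then 0.27 and 0.33, against 0.73 for all genes.

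The genes whose levels followed Ppargc1a most closely over the 6 libraries, by Pearson's r of log2 CPM among 10569 genes of at least 5 CPM, were Raph1, Fh1, Gm13490, A530098C11Rik and Eif4e, each with r of at least 0.999. With 2 groups that stand apart, r mostly restates the group difference. Fh1, fumarate hydratase of the citric acid cycle, was at 555.4 CPM in the WT mice and 317.7 CPM in the 113Q mice, and Raph1, an actin regulator, at 41.5 and 23.8 CPM.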

How the data were processed

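The authors deposited 1 table of estimated counts per gene, a matrix of Cuffdiff (2.1.1); the submitters' processing notes also name Bowtie2 (2.1.0), TopHat2 (2.0.9), Cufflinks, FastQC (0.10.0), cutadapt and the build mm10. Which annotation and strand option they used is not given in the sources used here. Libraries were made with TruSeq mRNA-Seq reagents, per the labels' protocols. Between 5.38% and 5.96% of values were fractional and were rounded. Groups came from the labels (3 WT, 3 113Q).

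The whole table was fitted with edgeR 4.0.16 (R 4.3.3; filterByExpr with a minimum count of 10, TMM factors, robust quasi-likelihood F test, Benjamini-Hochberg over 16960 genes, threshold 0.05). SE is the log2 fold change over the square root of F; 95% intervals use the test's degrees of freedom. The common biological coefficient of variation was 24.2%. Ratios were tested by exact permutation. Data simulated for this comparison (16651 genes tested) held 67, 67 and 64 genes changed 1.5, 2 and 4 times. Of these, edgeR recovered 22.4%, 44.8% and 84.4%, and 4.81% of its 104 calls were false. All other genes had the same simulated level in both groups, whereas 34.6% of genes were called in the real data. The changed share of the most abundant genes was not simulated either. These rates therefore do not measure recovery in the real comparison or errors from scaling. Gene lengths, coordinates and exon overlaps are from GENCODE M21. Alternatives were DESeq2 1.42.0, limma 3.58.1 voom, other scalings and filters, unrounded counts, no robust estimation, a threshold of 0.01, a term for or removal of libraries with Epcam of at least 1 CPM, a replicate block, leaving out each mouse, and values freed of their trend on GC content and length.

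The genes and lists were chosen with earlier results of these data known. Named were all 10 genes, up to 4 genes with the smallest p of each pathway list, up to 2 of the highest level of each cell type list (given here as sums instead) and the 5 genes most correlated with Ppargc1a; genes whose exons overlap one of the 10, the markers Epcam and Ucp1 and the genes marked in the text as chosen after their values were known fall outside this rule. Markers of fibroblasts (0 of 6 passed in edgeR, 2 at an unadjusted p below 0.05, 2 by DESeq2, 0 by voom), macrophages (0 of 5 passed in edgeR, 0 at an unadjusted p below 0.05, 0 by DESeq2 and 0 by voom), epithelium (0 of 6 in each of these) and Schwann cells (1 of 5 higher in edgeR) were also read. Of the Schwann cell markers, 2 were higher and 1 lower at an unadjusted p below 0.05. DESeq2 and voom each called 1 higher and 1 lower.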

Additional observations from a re-analysis of the deposited data

How the results depend on the processing

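Ppargc1a and Ppargc1b were lower and past the threshold in all 19 other tests, Tfb2m in all but library totals, and Tfam in all but library totals and the libraries with Epcam below 1 CPM. The count of genes called over the whole table was 5869; it was 11725 with library totals alone, 3127 in the libraries with Epcam below 1 CPM and 3424 at a threshold of 0.01, and 4325 to 5402 when 1 mouse was left out. With library totals alone, 2 of the 10 genes were lower and 5 higher, against 710 lower and 11015 higher of all 16960 genes tested. The signs of Pprc1 (0.48), Esrra (0.64), Esrrg (0.27), Tfam (0.12), Nrf1 (0.58), Tfb2m (0.092) and Polg (0.71) turned there. Polg, near 0 throughout, had log2 fold changes of 0.033 with voom, 0.035 with upper-quartile factors, 0.013 with no filter and 0.0040 in the libraries with Epcam below 1 CPM, and of -0.046 to 0.063 when 1 mouse was left out; Gabpa had -0.0077 to 0.14 then. Removing the trend on GC content and length moved Ppargc1a to -1.18; this gives values only, so no counts. The mouse numbers only name animals: same-numbered mice had correlations of deviations of 0.20, 0.24 and -0.27. With the replicate block, 4737 genes passed, 4 of the 10 as lower and 0 as higher in edgeR, and the log2 ratio differences were those given; their paired exact sign-flip p was 0.25 for each, the smallest 3 pairs allow. When 1 mouse was left out, the log2 ratio differences ran from 0.078 to 0.17 for Ppargc1a to Ppargc1b, -1.02 to -0.74 for Ppargc1a to Pprc1, 0.10 to 0.59 for Esrra to Esrrg and -0.75 to -0.53 for Tfam to Polg. The fewest counts of any of the 10 genes in a library were 283; the effect of depth was not tested.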
